A study of Mus musculus with 4 samples.

Results

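The postsynaptic scaffold genes described here are 9 mouse genes, *Dlg2*, *Dlg3*, *Dlg4*, *Dlgap3*, *Dlgap4*, *Shank1*, *Shank2*, *Shank3* and *Homer1*, out of 13554 gene names that carried an m6A peak in spinal cord. A peak belonged to a gene when its deposited row named that gene, and a gene with no row would have counted as having no peak. The genes held 48 of the 33556 peaks called after chronic constriction injury (CCI) and 47 of the 34406 peaks called after sham surgery. They also held 11 of the 4812 rows of a further deposited table, which lists peaks called as different between the groups and is here called the differential table.

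The tissue was spinal cord, taken on day 7 after surgery from C57BL/6J mice that were 6 to 8 weeks old. In CCI mice the sciatic nerve was tied loosely with silk at several sites, and sham mice went through the surgery without the ligatures. Poly(A) RNA was fragmented and captured with an antibody against m6A (the IP library), and fragments without capture gave the input library. Each group had 1 IP and 1 input library, the number of mice behind each is not given in the sources used here, so a gap between the groups could not be checked against replicates and no p-value was computed for it. The whole cord holds neurons and glia, and fewer cells of a type cannot be told apart from less RNA per cell. Of the markers examined, all 7 for neurons, all 4 for oligodendrocytes, all 3 for astrocytes, all 4 for microglia and all 4 spinal Hox genes had a peak in both lists, whereas *Emx1* of the forebrain and *Avil* and *Calca* of sensory ganglia had none. A peak shows that an mRNA was present and captured, not how much of it there was.

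The postsynaptic density is a layered protein mesh under the membrane of excitatory synapses. Membrane-associated guanylate kinases of the Dlg family hold glutamate receptors and channels near the membrane, Dlgap proteins (also called GKAP or SAPAP) bind the guanylate kinase domain of the Dlg proteins, Shank proteins bind Dlgap, and Homer proteins tie Shank to metabotropic glutamate receptors. m6A is a methyl mark that is placed on adenosines of mRNA and is known to gather in long internal exons and around stop codons, where it can affect decay, transport and translation. The antibody also recognises m6Am, a related mark next to the cap of some mRNAs.

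All 9 genes had at least 3 peaks in each list, while 40.4% of the gene names in the CCI list and 39.97% of those in the sham list had at least 3. Peaks per gene ran from 3 to 9 in CCI and from 3 to 8 in sham, with a median of 5 in both lists against a median of 2 over all gene names. Every gene had a peak in both lists, as did 48.0% of the protein-coding symbols of RefSeq. *Shank2* went from 6 peaks in sham to 9 in CCI, which was the widest gap in number, and *Dlg2* and *Dlgap3* had 5 in each list. Neither transcript length nor RNA level was matched in these counts.

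**Figure D1:**
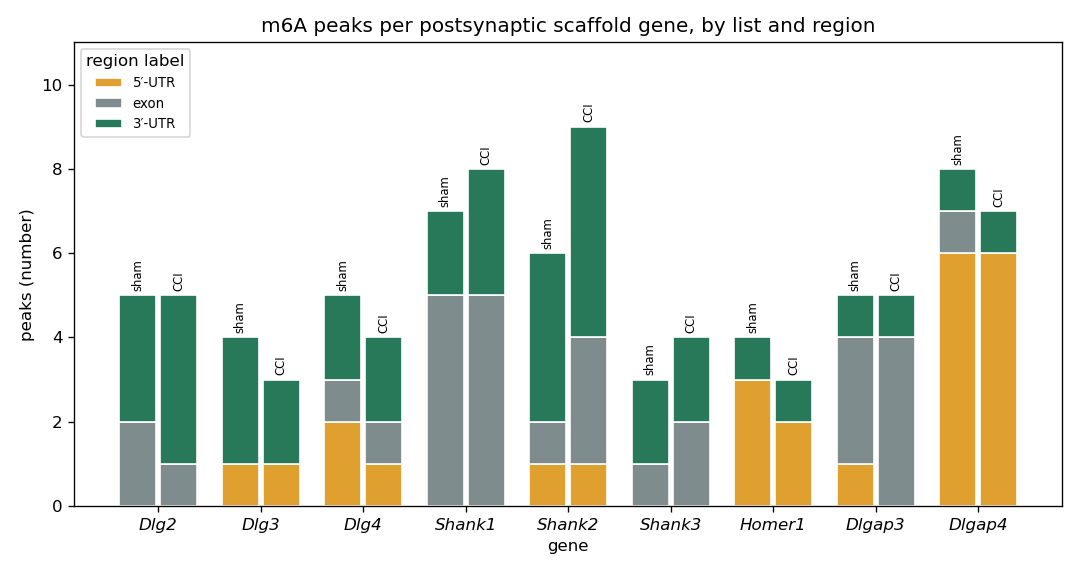
Number of m6A peaks (vertical axis) in each of the 9 genes (horizontal axis), with sham on the left and CCI on the right of each pair of bars and colours for the region label of each deposited peak. *Dlgap4* carried 6 peaks labelled 5′-UTR in each list, and *Shank1* carried 5 labelled exon in each list and none labelled 5′-UTR.

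The strength of a peak is given by its fold enrichment, the ratio of IP over input that the authors computed. The median fold enrichment of the scaffold gene peaks was 7.17 in CCI (quartiles 2.92 to 26.1) and 6.31 in sham (quartiles 3.31 to 13.4), and over all peaks it was 5.73 in CCI and 5.70 in sham. A fold enrichment of at least 50 was reached by 7 of 48 CCI peaks, or 14.6% (95% Wilson interval 7.25 to 27.2), against 3.79% of all CCI peaks. In sham it was reached by 6 of 47 peaks, or 12.8% (5.98 to 25.2), against 3.67% of all sham peaks. The scaffold genes thus held a larger share of very strong peaks than the lists as a whole in both groups, and 19 of 48 CCI peaks (39.6%) and 19 of 47 sham peaks (40.4%) spanned more than 1 exon, against 24.6% and 25.3% of all peaks. The intervals cover counting error only, peaks of 1 gene share a transcript, and the depth of the libraries is unknown because the files give no read counts.

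By the region label of each peak, 21 of the 48 CCI peaks (43.8%) lay in the 3′-UTR, 16 (33.3%) in an exon and 11 (22.9%) in the 5′-UTR. Over all CCI peaks these shares were 49.8%, 35.5% and 14.7%. In sham, 19 of 47 (40.4%) lay in the 3′-UTR, 14 (29.8%) in an exon and 14 (29.8%) in the 5′-UTR, against 48.9%, 35.1% and 16.1% of all sham peaks. The interval of the 5′-UTR share included the share of all peaks in CCI (13.3 to 36.5) and lay above it in sham (18.7 to 44.0). *Dlgap4* held 6 of the 11 CCI and 6 of the 14 sham peaks with this label, so the peaks behind these shares were not spread evenly over the genes.

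2 short stretches of sequence are shown because they are the places where a peak of these genes covered a RefSeq transcript start and the first bases after it contained the m6A consensus. That consensus is DRACH, in which D stands for A, G or T, R for A or G, and H for A, C or T. It was searched on the transcript strand, in the first 50 bases after the start that lay inside a peak. The capitals mark each match, both stretches are on the plus strand of RefSeq GRCm38.p6, and 7 of the 9 genes, with 13 starts in all, had an entry in the table of starts.
Dlg4, chr11:70018614-70018643: gccccagccccaGAACTccggggctgccag
Dlgap3, chr4:127172880-127172909: gtTAACAaagGGACAgaatgggcccagggt
The *Dlg4* match began at base 22 after the start and lay inside the strongest peak of the whole group of genes, in both lists. The *Dlgap3* stretch, with its first match at base 3, lay in a weak 5′ peak that was called in sham alone at a fold enrichment of 2.59. Another *Dlg4* start inside the same strong peak had no match in its first 50 bases. At least 1 match in the first 50 bases was held by 54.4% of the 32851 starts on record, so such a match was common, and it does not locate a methylated base.

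To set CCI against sham, each peak was paired with the peak of the other list for which the exonic bases shared by both were the largest part of the bases under either, if the choice was mutual. Of the CCI peaks, 43 of 48 (89.6%, 77.8 to 95.5) shared at least 1 base with a sham peak, and of the sham peaks 40 of 47 (85.1%, 72.3 to 92.6) shared 1 with a CCI peak. The shares over all peaks were 87.7% and 83.9%. Where a long peak of one list met several shorter ones of the other, only 1 of these could be its pair, which left 39 pairs in the 9 genes and 27380 pairs in all.

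Over the 39 pairs the median log2 ratio of fold enrichment, CCI over sham, was 0.08 (quartiles -0.27 to 0.67, range -1.03 to 3.15), and over all pairs it was 0.03 (quartiles -0.37 to 0.43). The ratio was above 0 in 24 pairs and below 0 in 15. Fold enrichment in CCI was at least 2 times that in sham in 6 of the 39 pairs, or 15.4% (7.25 to 29.7), where the share of all pairs was 8.59%. It was at least 2 times higher in sham in 1 pair, or 2.56% (0.454 to 13.2), where the share of all pairs was 7.25%. Both intervals included the share of all pairs, so a leaning of these genes towards CCI was not resolved at this number of pairs.

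**Figure D2:**
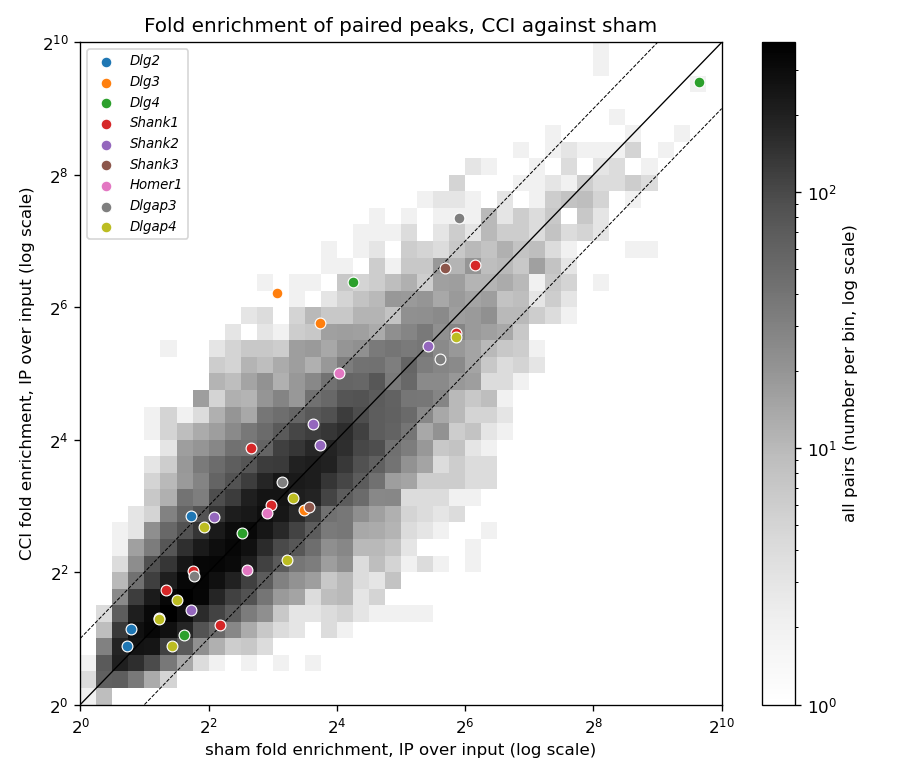
Fold enrichment of IP over input in CCI (vertical axis) against sham (horizontal axis), both on log scales, for the 39 pairs of peaks in the 9 genes (coloured points) over the number of all pairs in each bin (grey, 12 pairs outside the plotted bins are not drawn). The solid line marks equal values and the dashed lines a ratio of 2, and the points of *Dlg3*, *Dlg4* and *Dlgap3* above the upper dashed line include the 3 gene-end pairs.

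**Figure D3:**
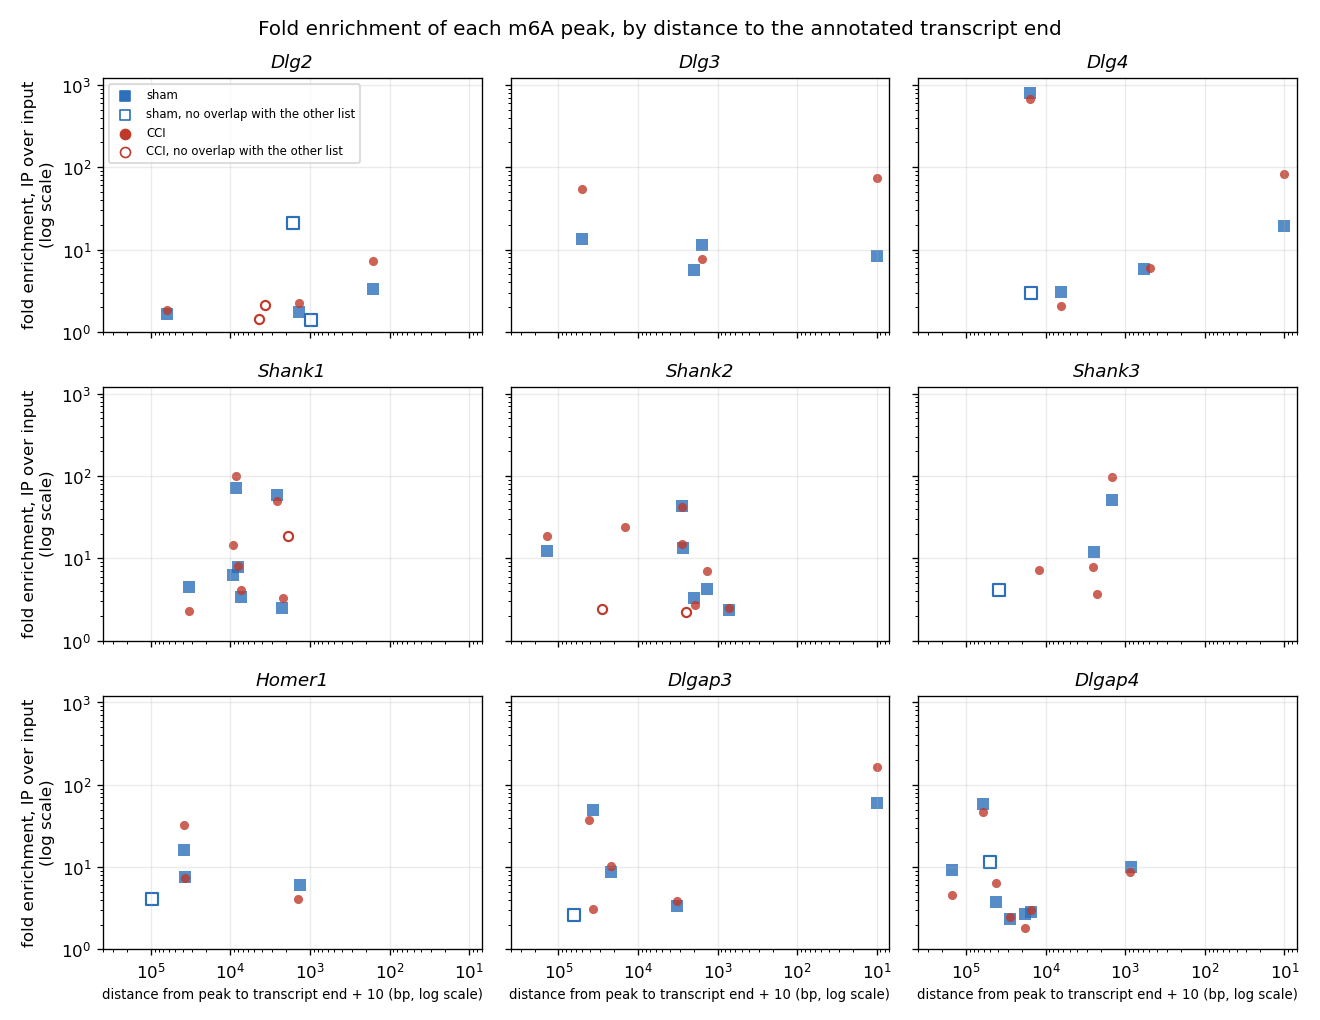
Fold enrichment of every peak (vertical axis, log scale) against the distance from its last base to the end of the transcript named in its row, plus 10 bp (horizontal axis, log scale, with the transcript end at the right), with 1 panel per gene, blue squares for sham and red circles for CCI. Open symbols are the 5 CCI and 7 sham peaks that shared no base with the other list, and the peaks at the right edge of the *Dlg3*, *Dlg4* and *Dlgap3* panels are higher in CCI.

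Among the membrane-associated guanylate kinases, *Dlg3* (SAP102, a scaffold that carries NMDA receptors) had the pair that differed most. Its last peak, at chrX:100818110-100818410 in the 3′-UTR, had a fold enrichment of 74.5 in CCI and 8.4 in sham, a log2 ratio of 3.15. The peak had the same borders in both lists, and 99.9% of all pairs did not exceed its ratio. The authors' log10 p-value of IP against input was nevertheless close to level, at -43.7 in CCI and -43.1 in sham. The 5′-UTR peak of *Dlg3*, from chrX:100767722, stood at 54.2 in CCI and 13.4 in sham, a log2 ratio of 2.02. Its remaining pair, further inside the 3′-UTR, went the other way at 7.7 in CCI and 11.2 in sham. There 1 CCI peak of 630 exonic bases lay over 2 shorter sham peaks, and the other of these had 5.61, below the CCI value. The ends of *Dlg3* were thus higher in CCI, while the direction further inside its 3′-UTR depended on the sham peak compared.

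*Dlg4* encodes PSD-95, the main scaffold of the density, and had the strongest peak of the 9 genes. It ran over several exons at the 5′ end from chr11:70017820, was labelled 5′-UTR, and had a fold enrichment of 673 in CCI and 799 in sham, a log2 ratio of -0.25. The last peak of the gene, at chr11:70045413-70045532 and with the same borders in both lists, had 83.4 in CCI and 19.1 in sham, a log2 ratio of 2.13. Its log10 p-value of IP against input was -27.3 in CCI and -21.3 in sham. A peak just before this last peak in the 3′-UTR was level at 6.02 and 5.76, and the exon peak had 2.08 in CCI and 3.05 in sham. As in *Dlg3*, the gene end was higher in CCI, here beside a 3′-UTR peak that was close to level.

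*Dlg2* encodes PSD-93, a close relative of PSD-95, and its peaks were the weakest of the group. In its main gene model no peak exceeded 7.22 in CCI or 3.29 in sham, and these were the values of its last 3′-UTR peak, which ended 150 bp before the transcript end (log2 ratio 1.13). The other pairs stood at 2.21 in CCI and 1.73 in sham, and at 1.85 and 1.65. Only 61.9% of the exonic bases under its CCI peaks were also under a sham peak, the lowest share of the 9 genes, which otherwise ran from 81.3% in *Homer1* to 100% in *Shank3*. A sham peak of 20.9 at chr7:90477240-90477419 also carried the name *Dlg2*, but under another gene identifier (ENSMUSG00000108872) and in a transcript of 1 exon far upstream of the other peaks.

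The Dlgap genes differed from each other in the region labels of their peaks. In *Dlgap3*, whose product links PSD-95 to Shank, the strongest peak covered the gene end on chromosome 4 to position 127237022 and had 163 in CCI and 59.6 in sham, a log2 ratio of 1.45. Its borders differed, with 719 exonic bases in CCI and 899 in sham. The authors' log10 p-value of IP against input for this peak went the other way, at -193 in CCI and -287 in sham. The long exon peak from chr4:127194760 had 37.3 in CCI and 48.7 in sham, and the other 2 pairs had log2 ratios of 0.18 and 0.23.

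*Dlgap4*, a paralogue of *Dlgap3*, had 6 of its 7 CCI peaks and 6 of its 8 sham peaks in the 5′-UTR by their label. In both lists these peaks lay between chr2:156613705 and chr2:156749182. They took the label from different transcripts, so they do not mark a shared 5′ end. The strongest, from chr2:156664975, had 47.0 in CCI and 57.8 in sham, and 980 of its 989 exonic bases in CCI lay within the span of another RefSeq gene, *Gm34111*. The first peak of the gene, from chr2:156613705, had 4.56 in CCI and 9.3 in sham, a log2 ratio of -1.03, and was the 1 pair of the group that was at least 2 times higher in sham. The 3′-UTR peak had 8.65 in CCI and 10 in sham. 4 of the 7 pairs of *Dlgap4* were higher in sham, and its median log2 ratio of -0.21 was the lowest of the 9 genes.

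The Shank genes, whose products form the deeper platform of the density, held the longest peaks. In *Shank1* a peak of 2607 exonic bases, chr7:44353385-44357966, was labelled 3′-UTR and had the same borders in both lists, at 49.0 in CCI and 58.1 in sham. The strongest peak of the gene, in an exon at chr7:44351330-44352098, had 99.3 in CCI and 71.5 in sham, and the 2 exon peaks that lay between these places had log2 ratios of 0.03 and 0.27. The pair with the largest ratio in *Shank1*, a short exon peak upstream of it at chr7:44350941-44351211 in CCI, had 14.6 in CCI and 6.31 in sham, a log2 ratio of 1.21. Its earliest exon peak had 2.31 in CCI and 4.54 in sham, a log2 ratio of -0.97, so the direction was mixed within the gene.

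In *Shank2* the strongest pair was level, at 42.5 in CCI and 43.0 in sham, and none of its 6 pairs reached a ratio of 2 (range of log2 ratios -0.30 to 0.75). The 3 extra peaks of *Shank2* in CCI were not all new places. 1 of them, at 24.0 from chr7:144407203, shared bases with the long sham peak that began at chr7:144409471, and 2 weak ones at 2.43 and 2.2 had no partner. In *Shank3* the last peak of the gene, from chr15:89558105 in CCI and chr15:89557865 in sham, had 97.0 in CCI and 51.5 in sham, a log2 ratio of 0.91. Its log10 p-value of IP against input was -147 in CCI and -280 in sham. The long peak before this last peak had 7.88 in CCI and 11.8 in sham, a log2 ratio of -0.58. The 4 CCI peaks of *Shank3* lay over 2 sham peaks, a further sham peak had no CCI partner, and all exonic bases under the CCI peaks were also under a sham peak.

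*Homer1*, which encodes both a scaffold form and a short form induced by activity, had 3 peaks in CCI and 4 in sham. Its strongest, in the 5′-UTR from chr13:93303858, had 32.3 in CCI and 16.3 in sham, a log2 ratio of 0.99. The peak after it was level at 7.43 and 7.55, and the 3′-UTR peak had 4.07 in CCI and 6.06 in sham.

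**Figure D4:**
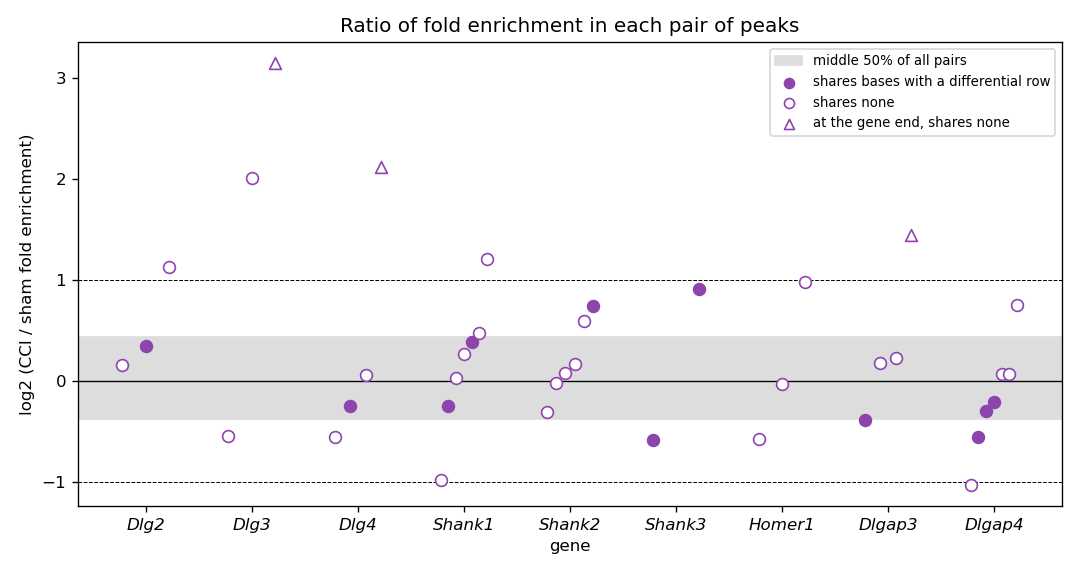
Log2 ratio of fold enrichment, CCI over sham (vertical axis), of each pair of peaks in the 9 genes (horizontal axis, pairs of a gene side by side in order of ratio), with the quartile range of all pairs in grey and ratios of 2 dashed. Triangles are the 3 gene-end pairs, filled points share bases with a row of the differential table, and none of the 7 pairs past a ratio of 2 is filled.

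3 genes had a pair that ended within 50 bp of the transcript end in both lists, *Dlg3*, *Dlg4* and *Dlgap3*, and in all 3 the fold enrichment was higher in CCI, with log2 ratios of 3.15, 2.13 and 1.45. The 2880 gene-end pairs of all genes had a median log2 ratio of 0.05 (quartiles -0.50 to 0.58), and 52.6% of them were higher in CCI, so the median gene end was close to level. The other 36 pairs of the scaffold genes had a median of 0.07 (quartiles -0.30 to 0.41). Of the 9 scaffold gene pairs with a fold enrichment of at least 50 in either list, 6 were higher in CCI, with a median of 0.91, against a median of -0.05 over the 1672 such pairs of all genes (quartiles -0.83 to 0.87). These 9 included the 3 gene-end pairs, and the other 6 were split evenly, 3 higher in CCI and 3 in sham, with a median of 0.11. Both groupings were noticed in these data, hold few pairs, and rest on fold enrichments against different inputs. Whether the IP or the input moved was not tested, since the lists give their ratio alone.

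Of the 9 genes 7 had a row in the differential table, and *Dlg3* and *Homer1* had none. Over all gene names the share with a row was 25.3%, and over gene names with at least 3 peaks in each list it was 47.3%. The rows were spread as 3 in *Dlgap4*, 2 each in *Dlg2* and *Shank1*, and 1 each in *Dlg4*, *Dlgap3*, *Shank2* and *Shank3*. 10 of the 11 rows overlapped a peak in both lists, and the exception was a *Dlg2* row at chr7:92445442-92445532 that met a CCI peak of 2.14 and no sham peak.

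The rows of the differential table and the largest ratios of fold enrichment fell in different places. None of the 7 pairs past a ratio of 2 shared a base with a row, whereas 11 of the other 32 pairs did (34.4%, 20.4 to 51.7). Over all genes it was the opposite, with 20.4% of the 4338 pairs past a ratio of 2 and 14.9% of the 23042 others on a row. With 7 pairs, the count of 0 has a Wilson interval up to 35.4%, which includes the share of all genes. The 11 pairs on a row had log2 ratios from -0.58 to 0.91, 4 of them higher in CCI, and the CCI peaks in them had a median exonic length of 749 bases, against 360 bases over all pairs on a row. The *Shank3* row, at chr15:89548276-89558823, covered parts of 3 CCI and 2 sham peaks, and its direction depended on the peaks compared. The peaks that shared most bases with it had 7.88 in CCI and 11.8 in sham, but the means weighted by shared bases were 33.6 in CCI and 25.9 in sham.

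12 peaks of the scaffold genes had no partner, and most were short and weak. The 5 in CCI had a median fold enrichment of 2.2 and a median log10 p-value of -5.30, against -52.2 for the 43 CCI peaks with a partner. The strongest, a 3′-UTR peak of *Shank1* at chr7:44358625-44358685 with 18.9, was the exception, with a log10 p-value of -41.3. The others lay in *Dlg2* and *Shank2*. The 7 in sham had a median of 4.1 and a median log10 p-value of -3.0, against -58.8 for the 40 with a partner, and lay in *Dlg2*, *Dlg4*, *Dlgap3*, *Dlgap4*, *Homer1* and *Shank3*. Of the 12 peaks, 3 lay wholly within the span of another RefSeq gene. These were the CCI peak of *Shank2* at 2.43 (*Gm14372*), the sham peak of *Dlgap4* at 11.6 (*4930405A21Rik*) and the sham peak of *Shank3* at 4.15 (*Gm15609*). The kit marked strand, but whether peak calling used it is not stated, so reads of a gene and an overlapping one cannot be told apart here.

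40 other genes of postsynaptic scaffolds and adaptors were listed for comparison. Of these 39 had a peak in both lists, with *Cask* as the exception without a row here, 24 had at least 3 in each list and 21 had a row in the differential table. Their 124 pairs had a median log2 ratio of -0.01 (quartiles -0.39 to 0.38), with 59 higher in CCI and 64 in sham, and 11 pairs were at least 2 times higher in CCI and 9 in sham. By the strongest pair of each gene, 6 of the 9 scaffold genes were higher in CCI, against 17 of the 39 others and 50.7% of all 11543 gene names with a pair. The largest ratios among the others were in *Lrrc7* (densin-180, 54.2 in CCI and 5.98 in sham, log2 ratio 3.18), *Nos1* (the neuronal nitric oxide synthase bound to PSD-95, 26.6 and 3.98, 2.74) and *Tanc2* (68.6 and 21.4, 1.68). Among the lowest were *Baiap2* (IRSp53, a PSD-95 and Shank partner, 29.2 and 113, -1.95) and *Homer2* (a paralogue of *Homer1*, 6.25 and 13.9, -1.15). The median log2 ratio over all pairs of a gene was 0.71 in *Lrrc7*, 1.19 in *Nos1*, 0.12 in *Tanc2*, -0.96 in *Homer2* and 0.50 in *Baiap2*. *Baiap2* was thus low by its strongest pair but not by its median. Ratios past 2 occurred in both directions within the wider set.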

How the data were processed

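MeRIP-seq of mouse spinal cord gave 1 IP and 1 input library each for CCI and sham. The submitters' processing notes name fastp, HISAT2, HOMER, ChIPseeker and GRCm38, whereas the methods of the study name Cutadapt, bowtie, MACS2 and ChIPseeker, and the tables carry exomePeak column names. The authors' settings, and the use of strand in calling, are not given in the sources used here.

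In the deposited tables the fold enrichment is the authors' ratio of IP over input, the p-value is their test of IP against input, and the log10 false discovery rate was read as a score. The differential table also holds the authors' fold change, p-value and false discovery rate of CCI against sham, which were not used. The depth is unknown, since no read counts are given.

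Peaks were matched to genes by the deposited gene name and compared by exonic blocks, with a minimum overlap of 1 bp. Pairs were mutual best partners by shared over united bases. A pair was counted as different from a ratio of 2 (log2 of 1), a gene end as within 50 bp of the transcript end in both lists, and the strongest pair of a gene as that with the highest product of both fold enrichments. Shares have 95% Wilson intervals. No test between the groups was run. The 9 genes were named in full, and of the 40 other genes the 3 highest and 3 lowest strongest pairs, of which 1 is not reported here. The genes, lists and rules were chosen with earlier results of these data known. Overlap and pairing were tested on simulated data. RefSeq tables of GRCm38.p6 gave names, overlapping genes and start sequences. Alternatives changed the overlap, the fold enrichment and false discovery rate of peaks, the centring, the ratio and the unit of counting. The tools were matplotlib 3.10.9, scipy 1.17.1, pandas 2.3.3 and numpy 2.4.6 under Python 3.11.15.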

Additional observations from a re-analysis of the deposited data

How the results depend on the processing

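Of 54 alternative values, 48 kept their direction and stayed close to the main value. The CCI share with a partner was 77.1% when an overlap of 50% of both peaks was required. The median log2 ratio was 0.91 over the strongest pair of each gene, and 0.32 over the 8 pairs with the same borders in both lists, an alternative chosen after seeing the data. At a log2 ratio of 0.5 there were 18 pairs, 11 higher in CCI and 7 in sham, in place of 7. By the highest fold enrichment in each list, *Dlg2* reversed to -1.53 because of the sham peak under another gene identifier, without which it was 1.13. By the same measure *Dlg3* moved to 2.48, which set different places against each other, the gene end in CCI (74.5) and the 5′-UTR in sham (13.4). Without the 3 gene-end pairs, also chosen after seeing the data, the median was 0.07. No paired analysis was possible because replicate number 1 was the only one in every group and no test compared samples. With unknown depth, different inputs and different borders, no error can be put on a fold enrichment. A search for the m6A consensus over whole peaks was not run, as no genome sequence was used here.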
